A study of Mus musculus with 15 samples.

Results

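Hearts of mice given methamphetamine (meth) were examined for 34 genes that carry glucose into the cell, break it down to pyruvate and lactate, pass pyruvate to the mitochondrion and store glucose as glycogen. The genes were chosen by name, and each was matched to the array through the accession that the array gives for a probe. Of the 34 genes, 33 had a matched probe. Pdk2, a kinase that switches off pyruvate dehydrogenase, had none and was not analysed here. The 33 genes had 56 probes, all of which were tested, and they stand among 14220 genes tested out of 18350 genes with a symbol. Each gene is given by its brightest tested probe, and this probe was well above background on all 15 arrays for all 33 genes.

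The adult heart lives mainly on fatty acids and keeps glucose as a fuel it can turn to under load or when oxygen is short. Glucose enters through the transporters GLUT1 and GLUT4, is trapped by hexokinase, and is committed to glycolysis by phosphofructokinase. Phosphofructokinase is driven by fructose 2,6-bisphosphate, a signal molecule that the PFKFB enzymes make and remove. Pyruvate at the end of the path becomes lactate or enters the mitochondrion, where pyruvate dehydrogenase, itself held back by kinases and released by phosphatases, feeds it to oxidation.

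Male and female C57BL/6 mice, 8 to 10 weeks old at the start, received intraperitoneal injections every week for 5 months. Meth was dissolved in phosphate buffered saline (PBS), and its dose was raised by 2 mg each week over 20 weeks to reach 40 mg/kg. Control mice received PBS alone on the same days. RNA from whole heart tissue was hybridised to 1-colour arrays, giving 4 arrays of meth-treated males and 4 of PBS males (in each case 2 from each of 2 trials), 4 of meth-treated females and 3 of PBS females (all from 1 trial). The labels describe each array as the heart of a mouse, and only mice alive at the end of dosing could be sampled. In bulk tissue, fewer cells of a type and less RNA per cell cannot be told apart.

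Signals are given as log2 of the processed intensity after subtraction of the array's 75th percentile, so that 0 is the 75th percentile of the probes and 1 is a doubling above it. Levels on this scale belong to a probe, and were compared between arrays but not between genes. A difference is a difference of these log2 signals, and a call is an adjusted p under 0.05 by limma with Benjamini-Hochberg adjustment over all 28358 probes tested. The arrays lay on 4 slides, each of which held both treatments, and 61.4% to 71.4% of probes were well above background. Slide 4, which held female meth replicates 3 and 4 and female PBS replicate 3, was brighter than the others, with a 75th percentile of 438 to 588.7 against 306.9 to 402.7.

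The tissue and its admixtures were checked with marker lists. The 10 cardiomyocyte markers were all tested and limma called 0 of them after meth in either sex (0 also at an unadjusted p under 0.05), and their summed linear signal was 4290 to 4950 in meth-treated males, 4540 to 5070 in PBS males, 3630 to 4650 in meth-treated females and 3500 to 4560 in PBS females. Airway epithelium differed: 7 of its 8 tested markers were called higher in meth-treated males, with a summed signal of 33 to 168 against 0.559 to 0.645 in PBS males, while the female values were 1.19 to 3.89 with meth and 1.66 to 3.12 with PBS. On the PBS arrays of both sexes, Bpifa1, Foxj1, Ccdc153 and Cdh1 of this list were never well above background, and in females Bpifa1 alone of the list was called. Of 5 tested white fat markers, Cfd was called higher in meth-treated males and Cfd, Retn and Cidec for the mean of both sexes, and the summed signal of the list was 34.9 to 179 against 19 to 61.4 in males and 67.3 to 102 against 27.9 to 35.7 in females. For the mean of both sexes, 4 of 6 red blood cell markers (median 0.52) and 3 of 5 atrial markers (median 0.42) had an unadjusted p under 0.05, and limma called 0 of either. The summed red blood cell signal was 556 to 1560 in meth-treated males, 659 to 765 in PBS males, 714 to 1390 in meth-treated females and 612 to 798 in PBS females. Of 9 tested skeletal muscle markers, Tnni2 was called lower in meth-treated males and 0 were called in females. The summed signal of that list was 200 to 272 in meth-treated males and 251 to 287 in PBS males. In females it was 144 to 268 with meth and 173 to 244 with PBS. The part of these markers in the results below was not tested.

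Of the 33 genes, Pfkfb3 was the only gene called with meth, in males and for the mean of both sexes but not in females. The lack of a call in the other genes does not show that they did not rise. It encodes a 6-phosphofructo-2-kinase whose product is a potent activator of phosphofructokinase. Its signal was 1.67 and 2.15 in the meth-treated males of trial 1, and 1.43 and 1.28 in those of trial 2. In PBS males it was 1.49 and 0.91 in trial 1, and 0.38 and 0.68 in trial 2. The male groups overlapped, because the first PBS male of trial 1 was above both meth-treated males of trial 2. In females the signal was 1.63, 1.17, 1.20 and 1.46 with meth and 0.71, 0.87 and 0.69 with PBS, and every meth-treated female was above every PBS female.

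The male means were 1.63 ± 0.38 (SD, n = 4) with meth and 0.86 ± 0.47 (SD, n = 4) with PBS, a difference of 0.77 (SE 0.15, 95% interval 0.436 to 1.096) or 1.70-fold, with an adjusted p of 0.034 by limma. In females the difference was 0.61 (SE 0.16, 95% interval 0.25 to 0.96) or 1.52-fold, and it did not pass after adjustment (adjusted p = 0.127). Over the mean of the male and female responses Pfkfb3 rose by 0.69 (SE 0.11, 95% interval 0.44 to 0.93) or 1.61-fold, with an adjusted p of 0.00771. The male and female responses differed by 0.16 (95% interval -0.33 to 0.65, adjusted p = 0.879), an interval that leaves room for a sizeable difference either way. Exact permutation tests of the arrays of one sex, two-sided, gave p = 0.0857 in males and p = 0.0571 in females, the latter being the smallest that 4 against 3 arrays allow.

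Within slides, meth minus PBS for Pfkfb3 was 0.18, 1.24 and 0.82 on the male slides 1, 2 and 3, and 0.91, 0.30 and 0.64 on the female slides 1, 2 and 4. All 6 differences were above 0. They come from the same arrays as the overall differences, and on slides 1 and 2 each compares 1 array with 1. The share of all genes above 0 on all 6 was not counted. The male call was lost when any of 7 single arrays was left out: male meth trial 1 replicate 2, both trial 2 meth-treated males, male PBS trial 1 replicate 2, both trial 2 PBS males, or female PBS replicate 1. Without these the adjusted p was 0.0528 to 0.125, and the male difference over all 15 arrays left out in turn was 0.66 to 0.89. The call on the mean of both sexes remained whichever array was left out, with an adjusted p of 0.00542 to 0.0263. With the replicate number as a block in both sexes that mean was 0.67 with an adjusted p of 0.0652. With the block in females alone (chosen after seeing the data) it was 0.67 with an adjusted p of 0.0256. Both blocks take out female meth replicate 4, which has no PBS array of its number. Without this array and with no block the mean was also 0.67.

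Other Pfkfb3 probes were dimmer and were not called. The first of them, well above background on 14 arrays, was higher by 0.36 in males (adjusted p = 0.568) and by 0.54 in females (adjusted p = 0.459). The second, well above background on 7 arrays, was higher by 0.66 in males (adjusted p = 0.326) and by 0.34 in females (adjusted p = 0.765). All 3 probes thus had the same direction in both sexes, and the male and the mean call rested on the brightest.

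The stretches upstream of the Pfkfb3 starts that RefSeq gives are printed because this gene carries the one call among the members. Both come from the GRCm38.p6 assembly, lie on the minus strand and run 250 bases up to the start, 5′ to 3′, with capitals for a matched motif. The first holds 1 E-box (CACGTG), which begins 53 bases before the start. The second holds 1 copy of the core that hypoxia-inducible factors recognise (ACGTG, counted outside an E-box), which begins 60 bases before the start.
Pfkfb3, chr2:11502091-11502340: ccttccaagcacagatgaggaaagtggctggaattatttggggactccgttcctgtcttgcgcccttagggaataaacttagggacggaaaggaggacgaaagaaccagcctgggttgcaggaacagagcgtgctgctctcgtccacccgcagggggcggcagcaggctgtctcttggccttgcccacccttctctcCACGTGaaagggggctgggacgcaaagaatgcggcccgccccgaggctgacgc
Pfkfb3, chr2:11553930-11554179: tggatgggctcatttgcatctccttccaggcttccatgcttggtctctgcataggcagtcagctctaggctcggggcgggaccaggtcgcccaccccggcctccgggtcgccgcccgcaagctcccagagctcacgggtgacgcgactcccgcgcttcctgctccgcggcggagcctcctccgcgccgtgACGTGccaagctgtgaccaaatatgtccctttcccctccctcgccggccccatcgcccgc
Both motifs were sought on both strands in the 51 RefSeq promoters of 32 members, each 250 bases before to 50 bases after a start. The E-box lay in 6 of these promoters (11.8%) and in 7.15% of all 32851 promoters, and the ACGTG core outside an E-box lay in 18 (35.3%) and in 13.6% of all. A match describes the letters of the window and not a site in use. The ACGTG core was also in promoters of Slc2a1, Aldoc, Hk1, Hk2, Ldha, Pgk1 and Gapdh, none of which was called in any comparison.

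**Figure D1:**
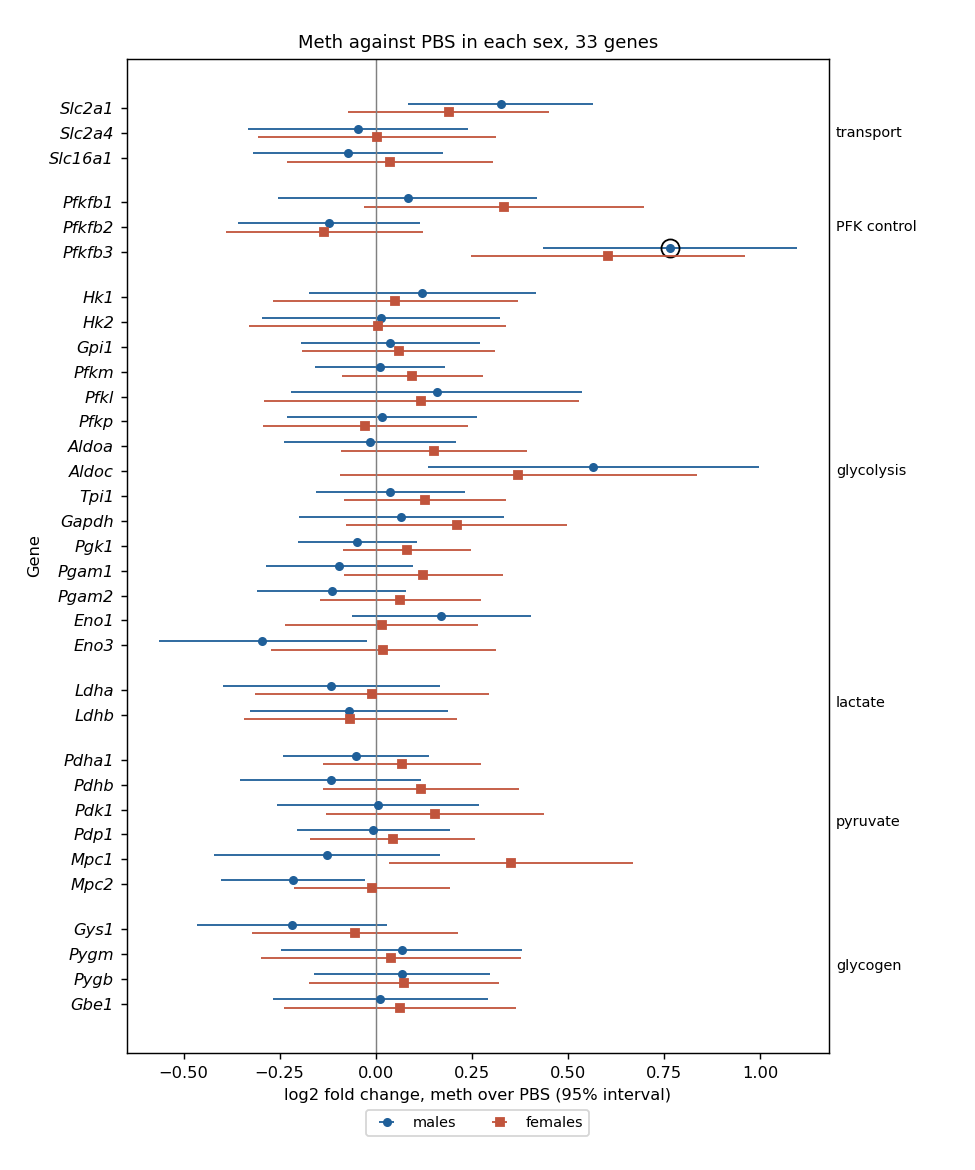
Difference between meth and PBS in log2 signal (horizontal axis, with 95% intervals) for each of the 33 genes, grouped by role, with males and females in separate colours and a black ring around a difference with an adjusted p under 0.05. Male Pfkfb3 at 0.77 carries the ring, and female Pfkfb3 at 0.61 is the highest of the female differences.

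Pfkfb3 was 1 of 33 members called in males, beside 190 of 14220 genes (1.34%), and again 1 of 33 for the mean of both sexes, beside 317 genes (2.23%). In females limma called 0 of 33 members, beside 63 genes (0.443%). At an unadjusted p under 0.05 there were 5 of 33 members in males (15.2%, against 13.2% of all genes), namely Slc2a1, Aldoc and Pfkfb3 higher and Eno3 and Mpc2 lower. There were 2 in females (6.06%, against 7.82%), Pfkfb3 and Mpc1, and 3 for the mean (9.09%, against 12.7%), Slc2a1, Aldoc and Pfkfb3. These shares lie near those of all genes. The methods' t-test called 0 members after adjustment in either sex. It called 0 of 14220 genes in males when paired, 9 when unpaired, and 0 in females either way. A test that calls so few genes says little about the members.

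Most of the members were measured closely enough to bound their response. The 95% interval lay within 0.5 of 0 on the log2 scale for 28 of 33 members in males (84.8%, against 69.8% of all genes), for 28 in females (84.8%, against 68.9%) and for 31 for the mean (93.9%, against 82.3%). The intervals of the members were about as wide as those of all genes. Their median half-width was 0.248 in males (against 0.25), 0.268 in females (against 0.27) and 0.182 for the mean (against 0.184). Above 0 were 17 of 33 members in males (51.5%, against 44.9% of all genes) and 27 in females (81.8%, against 58.6%). The members moved together by array in females. Their median deviation from their own means was -0.074 with meth and -0.029 with PBS on slide 1, and 0.09 and -0.112 on slide 2. On slide 4 it was 0.039 and -0.182 with meth and -0.14 with PBS. The median difference over the members was 0.01 in males and 0.06 in females, beside -0.02 and 0.03 over all genes, and the female median was -0.001 under quantile normalization and 0.14 when arrays were shifted by their median. Meth and PBS arrays did not overlap for 2 members in males (6.06%), beside 11.6% of all genes, and these were Slc2a1, higher, and Pgam2, lower. For Pgam2 the highest meth male, at 6.867, was just below the lowest PBS male, at 6.868. The treatments did not overlap for 2 members in females (6.06%), beside 7.01% of all genes, Pfkfb1 and Pfkfb3, both higher.

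Of the carriers, Slc2a1 encodes GLUT1, the transporter that gives basal uptake. Its signal was 1.96, 2.07, 2.01 and 2.04 in meth-treated males and 1.62, 1.56, 1.64 and 1.94 in PBS males. All meth-treated males were above all PBS males (exact permutation p = 0.0286, two-sided, the smallest that 4 against 4 arrays allow). In females it was 1.85, 2.03, 1.82 and 1.46 with meth and 1.60, 1.65 and 1.55 with PBS, where the fourth meth array lay below the PBS arrays. The difference was 0.32 in males (95% interval 0.08 to 0.57, adjusted p = 0.232), 0.19 in females (95% interval -0.07 to 0.45, adjusted p = 0.631) and 0.26 for the mean (95% interval 0.08 to 0.44, adjusted p = 0.133), so that Slc2a1 was not called. It was above 0 on all 6 slide comparisons, at 0.33, 0.50 and 0.23 in males and 0.25, 0.37 and 0.09 in females. These reuse the same arrays, and the share of all genes above 0 on all 6 was not counted. Without female meth replicate 4 the mean was 0.31 with an adjusted p of 0.0291. With the replicate block in females alone (chosen after seeing the data) it was 0.31 with an adjusted p of 0.0246, and with the block in both sexes 0.31 with 0.0453. Female meth replicate 4 has no PBS array of its number, so both blocks take it out of the female difference. All 3 settings thus leave out this array, and they were the only ones of 29 alternatives to call Slc2a1 for the mean.

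Slc2a4 encodes GLUT4, the transporter that insulin and contraction bring to the surface of the heart muscle cell. Its signal was 6.72, 6.80, 6.48 and 6.78 in meth-treated males and 6.75, 6.67, 6.72 and 6.83 in PBS males. In females it was 6.55, 6.88, 6.64 and 6.25 with meth and 6.76, 6.63 and 6.34 with PBS. The groups overlapped in both sexes, and the difference was -0.05 in males (95% interval -0.33 to 0.24) and 0.00 in females (95% interval -0.31 to 0.31). Slc16a1, the monocarboxylate carrier MCT1 that moves lactate across the membrane, differed by -0.07 in males and 0.04 in females.

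**Figure D2:**
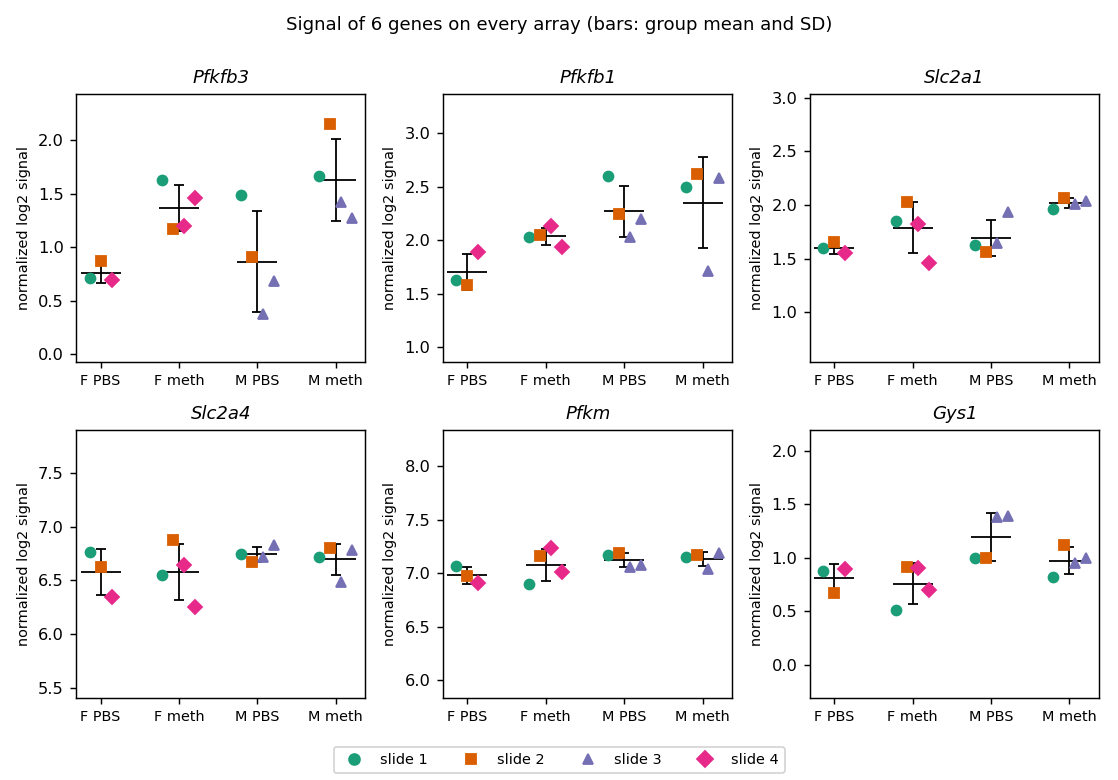
Normalized log2 signal (vertical axis) of 6 genes (Pfkfb3, Pfkfb1, Slc2a1, Slc2a4, Pfkm and Gys1) on each of the 15 arrays by group (F for female, M for male), with the marker shape giving the slide and bars for the group mean and SD. The meth arrays of Slc2a1 in males and of Pfkfb3 in females lie wholly above the PBS arrays, while those of Slc2a4 overlap.

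The PFKFB isozymes Pfkfb1 and Pfkfb2 were not called in either sex, and their responses were not tested against that of Pfkfb3. Pfkfb2, the form best known from the heart, had signals of 1.28, 1.36, 1.41 and 1.65 in meth-treated males and 1.68, 1.71, 1.45 and 1.34 in PBS males. In females it was 1.28, 1.42, 1.50 and 1.20 with meth and 1.48, 1.58 and 1.39 with PBS. The groups overlapped, and the difference was -0.12 in males (95% interval -0.36 to 0.12) and -0.13 in females (95% interval -0.39 to 0.12). Pfkfb1, the form of liver and skeletal muscle, was 2.03, 2.05, 2.14 and 1.93 in meth-treated females and 1.63, 1.58 and 1.89 in PBS females, without overlap, and differed by 0.33 (95% interval -0.03 to 0.70, adjusted p = 0.503, exact permutation p = 0.0571, as for Pfkfb3). In males its signal was 2.50, 2.62, 1.72 and 2.58 with meth and 2.60, 2.25, 2.03 and 2.19 with PBS, and the difference was 0.08 (95% interval -0.26 to 0.42).

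Of the 15 genes of glycolysis proper, none was called in either sex. At an unadjusted p under 0.05 these were Aldoc and Eno3 in males and none in females. The differences ran from -0.30 (Eno3) to 0.57 (Aldoc) in males, with 10 of 15 above 0 beside 44.9% of all genes. In females they ran from -0.03 (Pfkp) to 0.37 (Aldoc), with 14 of 15 above 0 beside 58.6% of all genes. The female signs turned together between slides. On slide 1, with 1 array of each treatment, all but Aldoc (0.78) and Pgam1 (0.06) were below 0, such as Pfkm at -0.16 and Pgam2 at -0.19. On slide 2, also 1 against 1, all but Aldoc (-0.16) were above 0, with Pfkm at 0.19 and Pgam2 at 0.28. Gapdh, Aldoa, Eno1, Ldha, Pgam1 and Tpi1 have near-identical copies in the genome that a probe may also bind, so their values are uncertain.

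Hexokinase phosphorylates glucose as it enters. Hk1 had signals of 4.42, 4.44, 4.60 and 4.42 in meth-treated males, 4.17, 4.02, 4.62 and 4.58 in PBS males, 4.23, 4.41, 4.83 and 4.36 in meth-treated females and 4.38, 4.22 and 4.61 in PBS females. Hk2, the form that insulin induces in muscle, had 4.21, 4.34, 4.09 and 4.28 in meth-treated males, 3.96, 4.28, 4.36 and 4.27 in PBS males, 4.06, 4.41, 3.98 and 3.75 in meth-treated females and 4.24, 4.10 and 3.80 in PBS females. Both genes overlapped between the treatments in both sexes. The difference was 0.12 in males (95% interval -0.17 to 0.42) and 0.05 in females (95% interval -0.27 to 0.37) for Hk1. Other Hk1 probes read differently. The 3 next brightest, each well above background on all 15 arrays, were higher by 0.21, 0.20 and 0.30 in males and differed by -0.09, -0.10 and -0.19 in females. None was called, and for the last of them the male response minus the female response was 0.49 (SE 0.15, adjusted p = 0.418 by limma). With the median over the probes of Hk1 the female difference was -0.16 and the difference of responses 0.41, so the sign of the female value depended on the probe. For Hk2 the difference was 0.01 in males (95% interval -0.30 to 0.32) and 0.01 in females (95% interval -0.33 to 0.34).

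Pfkm, the muscle subunit of phosphofructokinase and the enzyme that Pfkfb3 acts on through its product, was among the most tightly measured members. Its signal was 7.15, 7.17, 7.04 and 7.18 in meth-treated males, 7.17, 7.19, 7.06 and 7.07 in PBS males, 6.90, 7.16, 7.23 and 7.01 in meth-treated females and 7.06, 6.97 and 6.91 in PBS females. It differed by 0.01 in males (95% interval -0.16 to 0.18) and by 0.10 in females (95% interval -0.09 to 0.28). The liver and platelet subunits Pfkl and Pfkp differed by 0.16 and 0.02 in males and by 0.12 and -0.03 in females.

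Further down the path, Aldoc, an aldolase best known from brain, had the second highest difference in both sexes, on a dim probe. Its signal was -3.73, -2.99, -3.42 and -3.85 in meth-treated males and -4.21, -4.15, -4.14 and -3.75 in PBS males, and the difference of 0.57 (95% interval 0.14 to 1.00) had an adjusted p of 0.242. In females it was -3.50, -3.88, -3.48 and -3.36 with meth and -4.28, -3.72 and -3.78 with PBS, a difference of 0.37 (95% interval -0.09 to 0.84). The male array at -2.99 weighed on the male value, which was 0.37 without that array. Eno3, the muscle enolase, had the lowest male difference at -0.30 (95% interval -0.57 to -0.02, adjusted p = 0.34), with 7.14, 7.70, 7.33 and 7.47 in meth-treated males and 7.81, 7.77, 7.60 and 7.64 in PBS males. Without the meth array at 7.14 it was -0.17 (adjusted p = 0.602). In females Eno3 was 7.58, 7.75, 7.67 and 7.30 with meth and 7.66, 7.57 and 7.45 with PBS, a difference of 0.02 (95% interval -0.27 to 0.31). The muscle phosphoglycerate mutase Pgam2 was 6.72, 6.78, 6.80 and 6.87 in meth-treated males and 6.91, 6.87, 6.93 and 6.92 in PBS males. These groups barely failed to overlap, with the highest meth male at 6.867 and the lowest PBS male at 6.868. The difference was -0.12 (95% interval -0.31 to 0.08, adjusted p = 0.645 by limma and exact permutation p = 0.0286). In females Pgam2 was 6.60, 6.88, 6.94 and 6.55 with meth and 6.79, 6.61 and 6.65 with PBS, with overlap and a difference of 0.06 (95% interval -0.15 to 0.27). The aldolase Aldoa, the triose isomerase Tpi1, the dehydrogenase Gapdh and the kinase Pgk1 differed by -0.02, 0.04, 0.07 and -0.05 in males and by 0.15, 0.13, 0.21 and 0.08 in females. The isomerase Gpi1, the mutase Pgam1 and the enolase Eno1 differed by 0.04, -0.10 and 0.17 in males and by 0.06, 0.12 and 0.02 in females.

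The lactate dehydrogenase subunits convert pyruvate and lactate into each other. They were 2 of the members whose brightest probes had a difference between meth and PBS below 0 in both sexes. Ldha, the muscle subunit, was 7.26, 7.29, 7.29 and 7.25 in meth-treated males, 7.47, 7.40, 7.25 and 7.44 in PBS males, 7.32, 7.47, 7.06 and 6.82 in meth-treated females and 7.30, 7.30 and 6.93 in PBS females. Ldhb, the heart subunit, was 8.75, 8.85, 8.59 and 8.70 in meth-treated males, 8.88, 8.80, 8.72 and 8.78 in PBS males, 8.62, 8.89, 8.57 and 8.19 in meth-treated females and 8.76, 8.61 and 8.54 in PBS females. Neither was called, and the groups overlapped. Ldha differed by -0.12 in males (95% interval -0.40 to 0.17) and -0.01 in females (95% interval -0.31 to 0.30), and Ldhb by -0.07 (95% interval -0.33 to 0.19) and -0.07 (95% interval -0.34 to 0.21). A second Ldha probe, well above background on all 15 arrays, differed by -0.06 in males and 0.08 in females and was not called. The sign of the female difference turned in 12 of 31 alternatives for Ldha and in 6 for Ldhb.

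None of the 6 measured genes of pyruvate entry and oxidation was called. Mpc1 and Mpc2 form the carrier that takes pyruvate into the mitochondrion. Mpc1 was 7.10, 6.83, 6.95 and 7.59 in meth-treated females and 6.81, 6.64 and 6.85 in PBS females, against 6.85, 6.73, 6.72 and 6.89 in meth-treated males and 7.02, 6.97, 6.81 and 6.89 in PBS males. Its difference was 0.35 in females (95% interval 0.03 to 0.67, adjusted p = 0.381) and -0.13 in males (95% interval -0.42 to 0.17). The female value leaned on replicate 4, at 7.59, and was 0.19 (adjusted p = 0.5) without it. Mpc2 differed by -0.22 in males (95% interval -0.40 to -0.03, adjusted p = 0.312) and -0.01 in females. The dehydrogenase subunits Pdha1 and Pdhb differed by -0.05 and -0.12 in males and by 0.07 and 0.12 in females, and the inhibiting kinase Pdk1 by 0.00 and 0.15. Pdp1, the phosphatase that reactivates the dehydrogenase, had signals of 1.60, 1.49, 1.55 and 1.70 in meth-treated males, 1.72, 1.60, 1.46 and 1.58 in PBS males, 1.67, 1.65, 1.40 and 1.43 in meth-treated females and 1.54, 1.59 and 1.35 in PBS females. These overlapped, and Pdp1 differed by -0.01 in males (95% interval -0.21 to 0.19) and 0.04 in females (95% interval -0.17 to 0.26).

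Glycogen is built by Gys1 and Gbe1 and broken down by Pygm and Pygb, and none of these was called. Gys1, the muscle glycogen synthase, was 0.82, 1.12, 0.96 and 1.00 in meth-treated males, 1.00, 1.00, 1.38 and 1.39 in PBS males, 0.51, 0.92, 0.91 and 0.70 in meth-treated females and 0.88, 0.67 and 0.90 in PBS females. The trial 2 PBS males were the highest, and the difference was -0.22 in males (95% interval -0.47 to 0.03, adjusted p = 0.457) and -0.05 in females (95% interval -0.32 to 0.21). Pygm, the muscle phosphorylase, was 4.27, 4.37, 4.39 and 4.39 in meth-treated males, 4.22, 4.30, 4.29 and 4.34 in PBS males, 3.91, 4.32, 4.65 and 4.40 in meth-treated females and 4.21, 4.04 and 4.60 in PBS females. It differed by 0.07 in males (95% interval -0.25 to 0.38) and 0.04 in females (95% interval -0.30 to 0.38). The branching enzyme Gbe1 and the brain phosphorylase Pygb differed by 0.01 and 0.07 in males and by 0.06 and 0.07 in females.

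**Figure D3:**
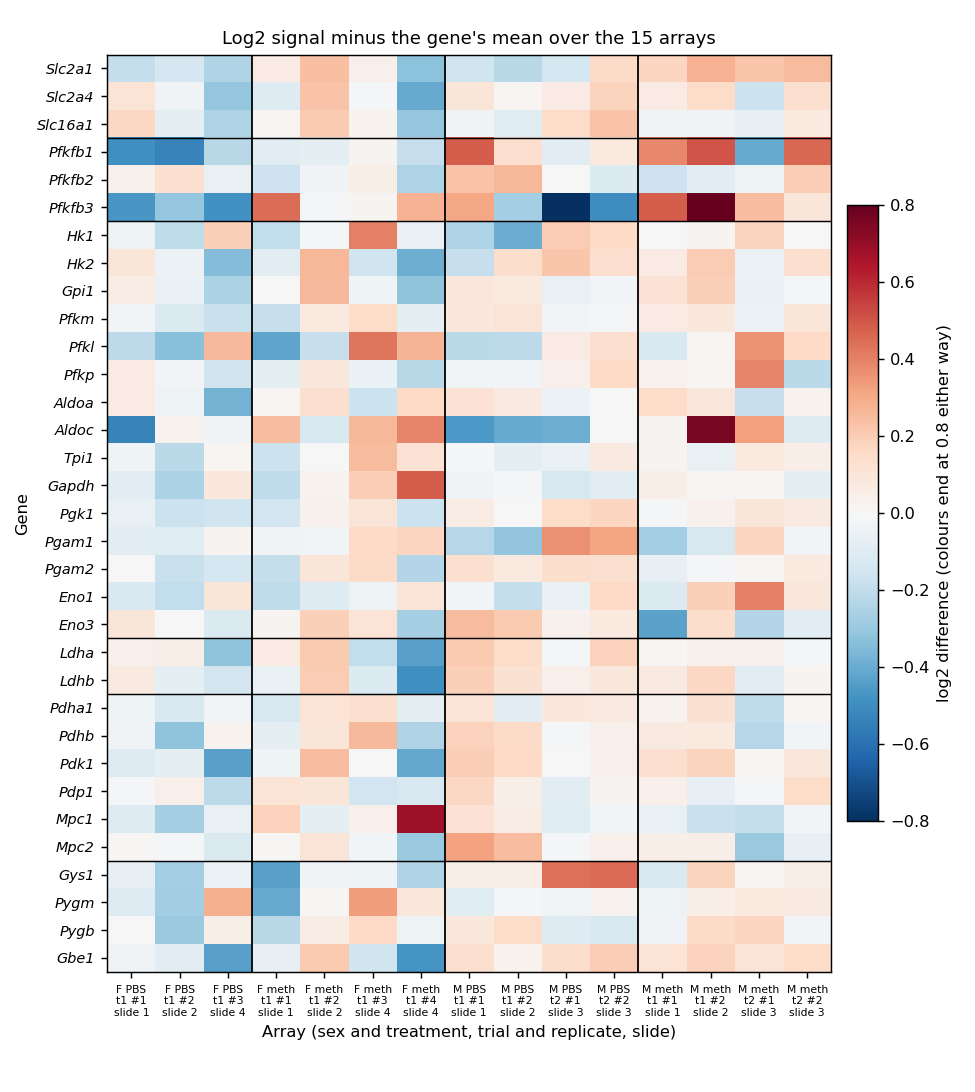
Deviation of each of the 33 genes (rows) from its mean over the 15 arrays (columns), in log2 signal (red higher, blue lower, colours ending at the limits of the scale), with arrays ordered by group (F for female, M for male, t for trial). The Pfkfb3 row is higher on most meth than PBS arrays, with male PBS trial 1 replicate 1 also high and male PBS trial 2 replicate 1 lowest, and the 3 female arrays of slide 4 differ from the other female arrays in many rows.

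In females more members separated by slide than by treatment. Among the females, the 3 arrays of slide 4 did not overlap the 4 arrays of slides 1 and 2 for 12 members (36.4%), beside 41.5% of all genes. Higher on slide 4 were Pfkl, Tpi1, Gapdh, Pgam1, Eno1 and Pygm, and lower were Hk2, Ldha, Ldhb, Pdp1, Gbe1 and Mpc2. The largest of these shifts were 0.59 for Pfkl, 0.44 for Pygm and -0.41 for Ldha. Pfkfb3 differed by -0.08 between these slides and is not among them. Each of these slides held both treatments.

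The question of whether the sexes respond differently was asked with the difference of the responses. Limma called 0 of 33 members, beside 22 of 14220 genes (0.155%), and at an unadjusted p under 0.05 there was 1 member (3.03%), Mpc1, beside 8.12% of genes. Mpc1 differed by -0.48 (male response minus female response, 95% interval -0.91 to -0.05, adjusted p = 0.559), and by -0.32 (adjusted p = 0.446) without female meth replicate 4. On slides 1, 2 and 3 its male difference was -0.17, -0.24 and -0.05, and on slides 1, 2 and 4 its female difference was 0.29, 0.19 and 0.42. The interval for the difference of responses lay within 0.5 of 0 for 20 members (60.6%), and for the other members it reached further from 0. The median over the members was -0.08, but 0.05 under quantile normalization.

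Between the untreated sexes, limma called 0 of 33 members, beside 78 of 14220 genes (0.549%). At an unadjusted p under 0.05 there were 5 members (15.2%), all higher in males, beside 15.3% of genes, and these were Pfkfb1, Pfkfb3, Pdk1, Pdhb and Mpc2. The methods' t-test, unpaired, called 0 members after adjustment, beside 10 of 14220 genes. Pfkfb1 had the largest difference, 0.75 higher in PBS males than in PBS females (SE 0.19, 95% interval 0.35 to 1.15, adjusted p = 0.102), or 1.68-fold. Its lowest PBS male, at 2.03, was above its highest PBS female, at 1.89. Without male meth trial 2 replicate 2 it was called, at 0.83 with an adjusted p of 0.0398. That array is in neither PBS group and enters only through the shared fit, and this was the only 1 of 28 alternatives with a call. Without male PBS trial 1 replicate 1 the Pfkfb1 difference was 0.66 with an adjusted p of 0.335. Pfkfb3 was higher in PBS males by 0.41 (95% interval 0.02 to 0.80, adjusted p = 0.31), Pdk1 by 0.37 (adjusted p = 0.258), Mpc2 by 0.31 (adjusted p = 0.194) and Pdhb by 0.29 (adjusted p = 0.316). The Pfkfb3 value depended on the trial term: the means of its PBS groups were 0.86 and 0.76, and the difference was 0.10 with no trial term and 0.17 with the trial from the source names. It was 0.22 without male PBS trial 1 replicate 1. With no trial term Mpc2 differed by 0.19 and Pfkfb1 by 0.57, and without female PBS replicate 2 Pdhb differed by 0.18.

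Of the 33 members, 27 were above 0 in this comparison (81.8%, against 52.3% of all genes), with a median of 0.18 beside 0.01 over all genes. This median depended on the scaling: it was 0.03 under quantile normalization, beside 0.01 over all genes, and 0.30 when arrays were shifted by their median, which moved the median of all genes to 0.13. The male PBS arrays came from 2 trials and the female from 1, and the trial 2 males lay on a slide of their own. Of the marker lists, the liver genes Alb, Fgb and Apob and the airway gene Scgb1a1 were called lower, and the cartilage gene Cnmd higher, in PBS males than in PBS females. Markers of heart muscle and fat also lay above 0 in this comparison, with a median of 0.17 for cardiomyocytes (2 of 10 at an unadjusted p under 0.05), 0.61 for atrium (3 of 5), 0.87 for white fat (2 of 5) and 1.58 for brown fat (4 of 5). The part of these markers in the differences was not tested.

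**Figure D4:**
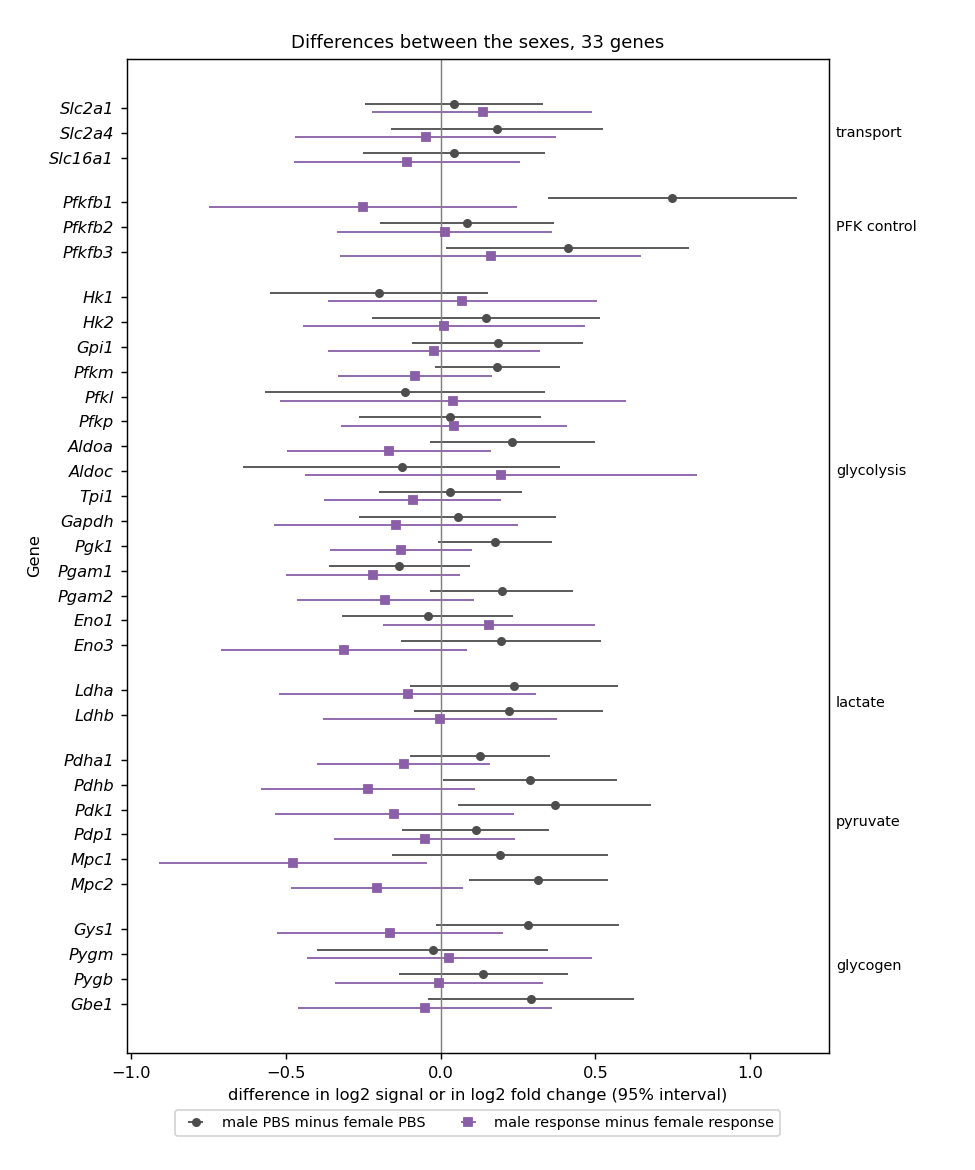
Male PBS minus female PBS in log2 signal, and male response minus female response, with 95% intervals (horizontal axis), for each of the 33 genes. Pfkfb1 at 0.75 has the highest PBS difference and Mpc1 at -0.48 the lowest difference of responses, and neither passed after adjustment.

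The pathway around the members was read from 6 further lists with 78 genes, of which 71 were tested: other carriers, other enzymes of glycolysis, pyruvate and glycogen, the pentose phosphate and hexosamine branches, and the insulin signal. Limma called 1 of the 71 in males (beside 1.34% of all genes), 1 in females (beside 0.443%) and 3 for the mean (beside 2.23%), all higher. It called 0 for the difference of responses (beside 0.155%) and 0 between PBS groups (beside 0.549%). At an unadjusted p under 0.05 there were 9 in males (12.7%, against 13.2% of all genes), 9 in females (12.7%, against 7.82%), 13 for the mean (18.3%, against 12.7%), 5 for the difference of responses (7.04%, against 8.12%) and 22 between PBS groups (31.0%, against 15.3%). No matched probe was found for Pdp2, Gyg1 (also listed as Gyg), Epm2a, Rpia and Irs2, and the probes of Hkdc1 and Pklr were too dim to test. Slc16a3, the carrier MCT4 that exports lactate, rose by 0.37 for the mean (SE 0.09, adjusted p = 0.041). Its signal was -1.08, -0.89, -0.66 and -1.03 in meth-treated males, -1.34, -1.26, -1.23 and -1.25 in PBS males, -0.37, -0.80, -0.70 and -0.40 in meth-treated females and -1.10, -0.83 and -0.93 in PBS females. The meth arrays were above the PBS arrays of the same sex throughout. This call was lost without any of 11 of the 15 arrays, at an adjusted p of 0.0623 to 0.112.

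Pik3r1, a regulatory subunit of the kinase PI3K below the insulin receptor, rose by 0.37 in females (SE 0.08, adjusted p = 0.0459) and by 0.29 for the mean (SE 0.05, adjusted p = 0.0119). The female signal was 1.38, 1.59, 1.45 and 1.40 with meth and 1.03, 1.04 and 1.17 with PBS. The female call was lost when any array was left out, at an adjusted p of 0.0524 to 0.207, and the median over the gene's probes differed by 0.05 in females and 0.08 for the mean. Foxo3, a transcription factor that the insulin signal holds out of the nucleus, rose by 0.98 in males (SE 0.18, adjusted p = 0.0259) and by 0.65 for the mean (adjusted p = 0.0243), on a dim probe that was well above background on 14 arrays. Its male signal was -3.90, -3.87, -3.86 and -3.69 with meth and -4.74, -4.80, -4.57 and -5.11 with PBS. With normexp background correction the differences were 0.21 in males and 0.21 for the mean, and neither was called. In females Foxo3 differed by 0.33 (adjusted p = 0.606). The male call was also lost without any of 7 arrays (adjusted p 0.0529 to 0.0903). The call on the mean was lost without female PBS replicate 2, male meth trial 2 replicate 2 or male PBS trial 2 replicate 2 (adjusted p 0.0541 to 0.0735).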

How the data were processed

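Total RNA from whole hearts was labelled with Cy3 and hybridised to Agilent mouse arrays. The deposited intensity values are the processed signals of each spot, background-subtracted by Feature Extraction 10.5.1.1 per the file headers and not normalized between arrays. A second deposited file gives log2 values by the authors. Each of its columns is the log2 signal of an array plus a constant, within 0.01 for 99.95% to 100% of probes, and it served as an alternative. The paper names no normalization.

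Control spots were left out, the spots of a probe were averaged on the log2 scale, and the 75th percentile of an array was subtracted from its values. Testing was limited to the 28358 probes (of 41174) that Feature Extraction marked as well above background on 3 or more of the 15 arrays. Groups came from the sample labels. The trial came from the titles, and the source names of 3 female arrays (meth replicates 3 and 4, PBS replicate 3) give trial 2 instead. All arrays entered a single fit with limma 3.58.1 in R 4.3.3, with the 4 groups and the trial as terms, two-sided, adjusted by Benjamini-Hochberg over all tested probes. The fit was tested on simulated data. The methods name a paired t-test without saying which arrays were paired, so it was an alternative. Exact permutation tests used scipy 1.17.1 and plots matplotlib 3.10.9 in Python 3.11.15. The number of arrays limits the precision, and no member probe was saturated. The labels give each array as a mouse but do not say that RNA was extracted on separate occasions.

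The members and lists were chosen with earlier results of these data known. All 33 measured members are named. Values on every array are given for members past the threshold in any comparison and for Slc2a1, Slc2a4, Hk1, Hk2, Pfkm, Pfkfb2, Ldha, Ldhb, Pdp1, Gys1 and Pygm, fixed by that rule, and for Pfkfb1, Aldoc, Eno3, Pgam2 and Mpc1, chosen after their values were seen. Genes of the further lists are named where they passed. Marker lists whose values with meth are not described in the report gave no call with meth, apart from Ahsg of liver (for the mean of both sexes). Pairing was checked from deviations from the group means, and same-numbered arrays share a slide in both sexes. Female pairs of the same number correlated at 0.30, 0.437 and 0.664. Some of unlike number did so too: meth 1 with PBS 2 at 0.631, meth 2 with PBS 1 at 0.54 and meth 4 with PBS 3 at 0.626. Pairs of a slide 4 array with an array of slide 1 or 2 were at -0.651 to -0.311. Male pairs of the same number were at -0.085 in trial 1 and 0.01 in trial 2. With 2 male arrays per treatment and trial, deviations mirror each other and say little. These values do not show that the numbers pair the arrays. The alternatives were the background correction, normalization, scaling, filter, trial term, slide or replicate as a block, the t-test, the median over probes, subsets of arrays and each array left out.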

Additional observations from a re-analysis of the deposited data

Results flagged for a closer look

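Among the 99 sets of 4 arrays checked, a set being a member in a group of 4, an array stood far from the other 3 in 3 sets, judged by its gap to the nearest array over the range of the group against Dixon's critical value. Chance alone marks about 1 in 20 groups. Hk1 in meth-treated males had a ratio of 0.871, because trial 2 replicate 1 was high at 4.60 while the other arrays were at 4.42 to 4.44. Aldoc in PBS males had a ratio of 0.851, with trial 2 replicate 2 high at -3.75. Pfkfb1 in meth-treated males had a ratio of 0.864, with trial 2 replicate 1 low at 1.72.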

How the results depend on the processing

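The count of members called in males fell from 1 to 0 with normexp background correction, no filter on dim probes, no trial term, the trial from the source names, the replicate block, trial 1 arrays only, no slide 4 arrays, the methods' t-test (paired or unpaired), the median over a gene's probes, and trial 2 males only (chosen after seeing the data), and was 0 to 1 when each array was left out. For the mean of both sexes the count fell from 1 to 0 with no trial term, trial 1 arrays only, no slide 4 arrays and the median over probes. It was 2, Pfkfb3 and Slc2a1, with the replicate block in females alone (chosen after seeing the data), and 1 to 2 when each array was left out. With the replicate block in both sexes it was 1, and this was Slc2a1. Between PBS males and PBS females it was 0 to 1 when each array was left out, and 0 otherwise. In females it was 0 in all 31 alternatives and for the difference of responses in all 29. The male difference of Pfkfb3 ranged from 0.355 to 0.894 and that for the mean from 0.446 to 0.75. No called value changed sign. Median differences over the members moved under other scalings: to 0.139 in females with the median shift, to 0.054 with quantile normalization and -0.192 with the median shift for the difference of responses, and to 0.032 and 0.297 between PBS groups. The cause was not tested. The paired t-test and the replicate block between PBS males and females, and t-tests for the mean and the difference of responses, were not run. Signal over background limits the values of Aldoc, Foxo3 and the dimmer Pfkfb3 probes.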
